A study of Mus musculus with 18 samples.

Results

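The 10 tumors described here are the 5 highest and the 5 lowest in oncofetal genes among 11 ranked liver tumors of Alb-R26Met mice. They were chosen by their measured RNA levels of H19, Afp and Gpc3, as the mean of the log2 values of the 3 genes. The series holds 18 samples, of which 12 are advanced hepatocellular carcinomas (HCC) and 6 are livers taken from tumor-free mice. Tumor 2 was left out of the ranking, because 86.7% of its deposited total lay in the genes Siglece and Gm26917, and tumor 5 fell in the middle of the order and is in neither group. All animals, those of the livers included, shared 1 genotype: a conditional mouse-human chimeric Met transgene (R26stopMet) at the Rosa26 locus, switched on by Cre recombinase under the Albumin promoter (Alb-Cre). The transgene is therefore on in cells that use this promoter, which are mainly hepatocytes. All were untreated F1 males from a cross of C57BL/6JRj with 129S2/SvPasOrlRj mice, and the tumors arose without any other agent. By the study's sample list, the 5 high tumors came from mice of 55 to 72 weeks and the 5 low tumors from mice of 49 to 69 weeks. The middle tumor 5 came from a mouse of 52 weeks and the 6 livers from mice of 52 to 71 weeks. Tumors 11 and 12, both in the low group, came from 1 mouse, so the 10 tumors represent 9 mice.

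Oncofetal genes are active in the fetal liver, fall silent after birth and return in many liver cancers. Afp encodes alpha-fetoprotein, the main plasma protein of the fetus and a serum marker of HCC. Gpc3 encodes glypican 3, a heparan sulfate proteoglycan of the cell surface that is targeted in HCC. H19 is an imprinted long noncoding RNA, made from the maternal chromosome, and shares enhancers with its neighbor Igf2, which is made from the paternal chromosome and encodes a fetal growth factor. In mice, the liver repressors Zhx2 and Zbtb20 are known to switch off Afp after birth, and Zhx2 also acts on H19 and Gpc3.

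Values are TPM, a length-corrected share of all transcripts, rounded to whole numbers by the authors, from which Siglece and Gm26917 were removed before each sample was rescaled to a total of 1000000. They are called rescaled TPM here. Since 1 unit of the deposited table became between 1.66 and 2.55 rescaled TPM in the 10 tumors, values below about 5 rest on very few units. The depth behind these values is unknown, and a gene listed at 0 may have had any TPM that rounds to 0.

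H19 ran over the widest range of the 3 ranking genes. In the high group it was at 131 in tumor 10, 3853 in tumor 6, 135 in tumor 9, 508 in tumor 8 and 284 in tumor 7. In the low group it was at 273 in tumor 3, 118 in tumor 12, 10.2 in tumor 11, 3.32 in tumor 1 and 21.4 in tumor 4. Tumor 3 thus held more H19 than the high tumors 10 and 9, tumor 12 lay just below them, and the other 3 low tumors were far lower.

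Afp was at 335 in tumor 10, 84.5 in tumor 6, 118 in tumor 9, 74.0 in tumor 8 and 63.3 in tumor 7. The low tumors 3, 12, 11, 1 and 4 held 75.2, 42.8, 78.9, 66.5 and 26.7. By its medians Afp separated the groups least, with values of 84.5 and 66.5.

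Gpc3 was at 380 in tumor 10, 31.9 in tumor 6, 138 in tumor 9, 25.2 in tumor 8 and 43.7 in tumor 7, and at 32, 29.1, 10.2, 26.6 and 3.57 in the low tumors 3, 12, 11, 1 and 4. Each of the 3 genes overlapped between the groups, which their average made. Tumor 6 led in H19 alone, while tumor 10 led in both Afp and Gpc3. Of the 6 livers, 5 were listed at 0 for all 3 genes, and liver 1 held 1.64 of H19 and 4.91 of Afp. The low tumors were therefore low among tumors, and each lay above every liver in the 3 genes, with Afp at 26.7 or more. H19 at 3.32 in tumor 1 and Gpc3 at 3.57 in tumor 4 rest on very few units, so these 2 values are hard to tell from the livers.

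**Figure D1:**
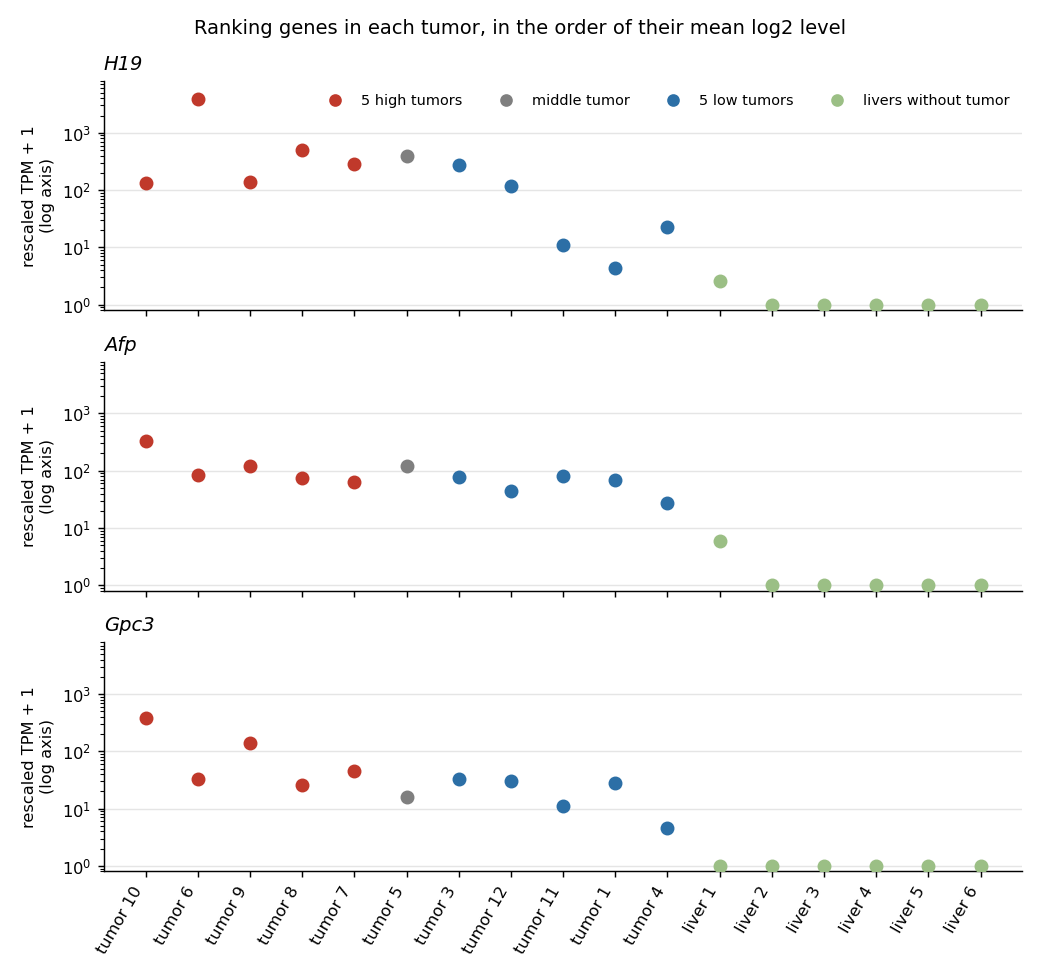
Rescaled TPM plus 1 (log axis) of H19, Afp and Gpc3 in 11 tumors, from the highest to the lowest mean log2 level of the 3 genes, and in 6 livers. Red points are the 5 high tumors, gray is the middle tumor, blue are the 5 low tumors and green are the livers, of which only liver 1 lies above 0.

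The border between the groups was narrow. The mean log2 level was 6.55 in tumor 7, the last of the high group, 6.51 in the middle tumor 5 and 6.46 in tumor 3, the first of the low group, whereas it reached 8.0 in tumor 10 and 3.82 in tumor 4. With H19 left out of the ranking, tumor 3 took the place of tumor 8 among the high tumors and tumor 5 entered the low group. With Gpc3 left out, tumors 9 and 7 left the high group, tumor 9 for the low group, and tumors 5 and 3 entered it. The middle tumor 5 held 392.3 of H19, 122 of Afp and 14.7 of Gpc3.

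The products and start regions of the ranking genes are shown to make the definition of the groups concrete. The H19 transcript (GRCm38.p6, chromosome 7, from 142575530 to 142578146) is the precursor of miR-675, and the Igf2 gene (chromosome 7, from 142650768 to 142666816), 72621 bases away, holds miR-483. Small RNAs were not measured in these poly-A libraries. Their mature sequences in RefSeq are written 5′ to 3′ with the seed, bases 2 to 8, in capitals. No seed is shared by any of the 4.
mmu-miR-675-5p: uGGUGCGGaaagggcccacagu
mmu-miR-675-3p: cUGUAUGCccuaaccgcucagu
mmu-miR-483-5p: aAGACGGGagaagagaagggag
mmu-miR-483-3p: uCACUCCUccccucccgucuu

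The start regions of Afp (chr5:90490464-90490763, plus strand) and Gpc3 (chrX:52613925-52614224, minus strand), 300 bases each in RefSeq on GRCm38.p6, follow. In the Afp sequence the capitals mark the letters GTTAAT and the TATA box TATAAA, searched on both strands. They occurred in 7.10% and 13.6% of the 32851 start regions of that length. In the Gpc3 sequence they mark the GC box CCGCCC, which was found 4 times there and at least once in 35.7% of all start regions. A match of letters is a description and no evidence of binding. H19 has no entry among these regions. The 4 regions of Igf2 held neither GTTAAT nor TATAAA.
Afp: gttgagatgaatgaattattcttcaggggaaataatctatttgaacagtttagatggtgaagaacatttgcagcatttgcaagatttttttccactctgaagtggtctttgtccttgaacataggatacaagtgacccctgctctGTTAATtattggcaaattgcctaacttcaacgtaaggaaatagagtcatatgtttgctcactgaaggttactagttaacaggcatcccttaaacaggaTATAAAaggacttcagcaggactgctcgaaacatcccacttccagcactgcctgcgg
Gpc3: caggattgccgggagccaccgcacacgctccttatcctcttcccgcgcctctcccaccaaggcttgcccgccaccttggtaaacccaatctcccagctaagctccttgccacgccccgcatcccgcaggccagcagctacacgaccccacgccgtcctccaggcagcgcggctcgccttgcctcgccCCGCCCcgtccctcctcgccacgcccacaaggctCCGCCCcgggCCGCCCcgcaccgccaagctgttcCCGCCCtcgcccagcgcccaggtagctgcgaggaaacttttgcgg

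Some features of single libraries stand beside all results. Deposited totals of the 10 tumors were between 849707 and 907513. Tumor 10, the highest in the ranking, stood apart: it was the highest of the 10 tumors in 3142 of 12385 genes tested, and lay at least 1 log2 unit above all other 9 in 297 of them and at least 1 below all in 241, against at most 38 and 156 for any other tumor. Values without tumor 10 are therefore given beside the gene lists whose median it moved most. The sample names carry a tag, E19 or E20, whose meaning is not given in the sources used here. Each group had 3 tumors with E19 and 2 with E20 (Fisher's exact test, two-sided, p = 1). The nuclear RNA Malat1 was between 315 and 1393 in the 6 tumors with E19 and between 4154 and 4939 in the 4 with E20. The tag thus went with a large difference in this RNA within both groups. Mice of high tumors were 66.8 ± 6.98 weeks old and those of low tumors 57.8 ± 8.79 weeks (SD, n = 5 each), a difference of 9 weeks (exact permutation test over 252 splits, two-sided, p = 0.127, smallest possible p = 0.00794). Age belongs to the mouse, and with the mouse of tumors 11 and 12 counted once the low group averaged 60 ± 8.41 weeks (SD, n = 4 mice) and the difference was 6.8 weeks (exact permutation p = 0.238). With tumors 11 and 12 counted separately, the difference was 11.95 weeks without tumor 8 (exact permutation p = 0.0476). In the same way it was 1.4 weeks when Gpc3 was left out of the ranking (exact permutation p = 0.841). Both p-values thus count the shared mouse more than its weight. The number of genes above 0 was 12628 ± 906 in high and 12435 ± 916 in low tumors (SD, n = 5 each, exact permutation p = 0.698). By tag it was 13270 to 13819 in the 4 tumors with E20 and 11508 to 12394 in the 6 with E19. The permutation did not take the tag into account.

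No gene outside the ranking set passed the test between the groups. Of 12385 genes tested with limma, 0 (0%) had a Benjamini-Hochberg adjusted p under 0.05, the smallest being 0.170 for Insig2. At an unadjusted p under 0.05 there were 608 genes (4.91%), of which 407 (3.29%) were higher and 201 (1.62%) lower in the high tumors. The 5 high tumors lay all above or all below the 5 low tumors in 124 genes, above in 73 (0.589%) and below in 51 (0.412%). Over all genes tested the difference was positive in 7116 and negative in 5269, and the median log2 fold change was 0.048. Counts within the gene lists below are to be read beside these shares of all genes. With a trimmed mean of M values as scaling, 349 genes were higher and 296 lower at an unadjusted p under 0.05, and Insig2 alone passed after adjustment (adjusted p = 0.0400). Values below are therefore descriptions of genes that did not pass, and an unadjusted p under 0.05 is named only as such. A p that misses the threshold does not show that the groups were alike.

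Igf2, the neighbor of H19, had the largest log2 fold change of the genes named here. It was at 75.5 in tumor 10, 212 in tumor 6, 8.65 in tumor 9, 15.1 in tumor 8 and 8.73 in tumor 7. In the low tumors 3, 12, 11, 1 and 4 it was at 0, 1.71, 2.55, 0 and 1.78, in the middle tumor at 1.63, and in the livers between 0 and 1.90. Every high tumor lay above every low tumor, and tumor 6, the highest in H19, was also the highest in Igf2. The difference was 3.96 ± 0.81 on the log2(value + 1) scale (SE, limma unadjusted p = 0.000341, adjusted p = 0.383). Tumor 3, which held nearly as much H19 as tumor 7 (273 against 284), was listed at 0 for Igf2, so the neighboring genes were not at one ratio across tumors.

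Mest and Peg3 were the other imprinted genes under an unadjusted p of 0.05. Of 17 tested genes of an imprinted network, 2 were higher (Igf2 and Mest) and 1 lower (Peg3) at that p. Over all genes, 3.29% were higher and 1.62% lower. The median log2 fold change of the network was 0.15 (0.04 without tumor 10) beside 0.048 over all genes. Mest, an imprinted gene of the hydrolase family that is high in the fetus, was between 3.46 and 5.05 in the high and between 0 and 1.88 in the low tumors (log2 difference 1.18 ± 0.32, SE, unadjusted p = 0.00311). These values correspond to a few units of the deposited table. Peg3, a zinc finger gene, averaged 6.26 in high and 13.8 in low tumors with overlap. Dlk1 (at most 3.46 in any of the 10 tumors), Peg10 (at most 5.09) and Meg3 (at most 12.2) were not tested because they were low in most tumors, and Plag1 and Ins2 were listed at 0 in all 10.

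The regulators known for the ranking genes overlapped between the groups, with 1 exception. Zhx2 was at 16.3, 13.2, 10.4, 18.5 and 13.1 in the high tumors 10, 6, 9, 8 and 7, and at 13.2, 13.7, 10.2, 21.6 and 10.7 in the low tumors 3, 12, 11, 1 and 4. Its groups covered nearly the same range (log2 difference 0.06 ± 0.23, SE, unadjusted p = 0.785). Zbtb20 was between 95.1 and 328 in the high and between 102 and 327 in the low tumors (log2 difference 0.07 ± 0.42, SE). The direction of both differences changed when single tumors were left out. Hnf4a, Foxa2 and Foxa3, factors of hepatocyte identity, overlapped too, with Hnf4a at 65.7 to 105 in the high and 58.8 to 123 in the low tumors. Of 26 regulators tested, only Cebpb, a factor of the acute phase and of regeneration, was under an unadjusted p of 0.05. It was between 124 and 152 in the high and between 61.1 and 118 in the low tumors without overlap (log2 difference 0.70 ± 0.19, SE, unadjusted p = 0.00274, adjusted p = 0.584).

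Of the genes beside the ranking genes and members of their families, few differed. Alb, which lies next to Afp and encodes albumin, averaged 65806 ± 15542 in high and 82243 ± 5870 in low tumors (SD, n = 5 each, log2 difference −0.35 ± 0.23, SE, unadjusted p = 0.16). Gpc4, another glypican, ran from 107 to 159 in the high and from 114 to 184 in the low tumors. Of the 12 tested genes of this list, Igf2 alone was under an unadjusted p of 0.05, and the median was −0.05. Igf2 is also counted in the imprinted and the fetal list.

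Fetal and oncofetal genes that did not enter the ranking mostly overlapped between the groups. Of 35 listed genes, 21 passed the filter and 9 were at 0 in all 10 tumors. At an unadjusted p under 0.05, 3 were higher (Igf2, Mest and Hmga1), beside 3.29% of all genes, and none lower, with a median of 0.15. Igf2 and Mest are members of the imprinted list as well. Hmga1, a chromatin protein of fetal and cancer cells, was at 106 in tumor 10, between 10.1 and 43.7 in the other high tumors and between 8.57 and 25.5 in the low tumors (log2 difference 1.30 ± 0.52, SE, unadjusted p = 0.0279). Without tumor 10 the median of the list was −0.02, and 2 genes were under an unadjusted p of 0.05. Igf2bp1, Lin28a, Lin28b, Trim71 and Hmga2, genes of the fetal growth program, were listed at 0 in all 10 tumors.

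Several tumor genes that were low or at 0 in the livers overlapped between the groups. Ly6d, a membrane protein, was between 97.7 and 945 in the high and between 143 and 934 in the low tumors, and at most 4.91 in livers. Tff3, a secreted trefoil factor, was between 81.7 and 1556 in the high and between 278 and 1734 in the low tumors, and at most 11.5 in livers. Spink1, a trypsin inhibitor found in HCC, was listed at 0 in all livers and ranged from 4.08 to 130 and from 6.65 to 155. Every low tumor thus lay above every liver in these 3 genes.

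Among all genes, Insig2 had the smallest p, with lower levels in the high tumors. Insig2 encodes a protein of the endoplasmic reticulum that holds back the activation of sterol regulatory element binding proteins. It was at 67.4, 105, 70.9, 95.9 and 65.5 in the high tumors 10, 6, 9, 8 and 7, and at 164, 243, 214, 274 and 185 in the low tumors 3, 12, 11, 1 and 4. The groups did not overlap, and the middle tumor 5 lay between them at 135. Livers ran from 90.7 to 267 and so covered the range of both. The log2 difference was −1.41 ± 0.20 (SE, limma unadjusted p = 1.38e-05, adjusted p = 0.170). Within E19 tumors it was at 65.5 to 70.9 in the 3 high against 164 to 214 in the 3 low, and within E20 tumors at 95.9 and 105 in the 2 high against 243 and 274 in the 2 low. With the tag as a covariate the limma adjusted p was 0.00663. Over 26 alternatives of group membership, scaling, filter, covariate and left-out tumor, the continuous score not counted, it ran from 0.00663 to 0.997. It was highest when Gpc3 was left out of the ranking (log2 difference −0.72). The smallest limma adjusted p of any gene was 0.995 with age as a covariate and 0.793 without tumor 12, so Insig2 passed in neither. Tumor 12 shares its mouse with tumor 11.

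Cyp7a1, the rate-limiting enzyme of bile acid synthesis, lay on the other side. It was at 163 in tumor 10, 30.1 in tumor 6, 22.5 in tumor 9, 55.5 in tumor 8 and 15.3 in tumor 7. The low tumors 3, 12, 11, 1 and 4 held 3.76, 5.14, 2.55, 1.66 and 8.92, and the livers between 3.24 and 29.4. All 5 high tumors were above all 5 low tumors (log2 difference 3.06 ± 0.56, SE, unadjusted p = 0.000135, adjusted p = 0.383). Without tumor 10 the difference was 2.56. Other enzymes of the pathway overlapped. Cyp8b1 was between 24.5 and 113 in the high and between 15.3 and 182 in the low tumors, and Cyp27a1 was between 64.0 and 306 in the high and between 63.6 and 226 in the low tumors.

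Ahr, Cyp2c68, Cyp2c40 and Cbr3 were named on the higher side, none passing after adjustment. Ahr, the aryl hydrocarbon receptor, was at 102, 52.6, 25.9, 57.2 and 30.6 in the high tumors 10, 6, 9, 8 and 7 and between 12.7 and 21.6 in the low tumors (log2 difference 1.49 ± 0.33, SE, unadjusted p = 0.0006, adjusted p = 0.391). Cyp2c68 was between 118 and 237 in the high and between 46.4 and 94.1 in the low tumors, with a log2 difference of 1.15 ± 0.25. Cyp2c40 was between 6.55 and 20.7 and between 0 and 5.09, with a log2 difference of 2.19 ± 0.45. Members of the Cyp2c family are near-identical, and the division of their reads among them is uncertain. Cbr3, a carbonyl reductase, was between 2.18 and 19 in the high tumors, at 0 in 4 low tumors and at 1.66 in tumor 1. Cbr3 thus passed the filter through the high group. Its high tumors other than tumor 9 were at most 5.64, a few units of the deposited table.

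The remaining genes named on this side were Cnn2, Ubxn6, Rbm3 and Srm. Cnn2, the actin-binding calponin 2, was between 6.55 and 14.3 in the high and between 2.55 and 3.76 in the low tumors (log2 difference 1.32 ± 0.23, SE, unadjusted p = 0.000102, the smallest in this direction, adjusted p = 0.383). Ubxn6, a cofactor of the segregase p97, was between 55.3 and 81.7 and between 30.8 and 44.9 (log2 difference 0.88). Rbm3, a cold-inducible RNA-binding protein, was between 43.2 and 57.2 and between 22.6 and 36.6 (0.81). Srm, spermidine synthase, averaged 67.3 ± 13.6 against 33.8 ± 9.91 (SD, n = 5 each) and was the only 1 of the 20 named genes whose groups overlapped, since tumor 3 at 50.8 exceeded tumor 6 at 48.8.

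The named genes on the lower side began with Slc30a10 and Elovl5. Slc30a10, a manganese exporter of hepatocytes, was at 2.04, 3.76, 5.19, 10.1 and 4.37 in the high tumors 10, 6, 9, 8 and 7, and at 16.9, 20.6, 15.3, 33.2 and 12.5 in the low tumors. The livers were at 12.9 to 22.8, so that every high tumor lay below every liver, while the low tumors overlapped with the livers (log2 difference −1.82 ± 0.34, SE, unadjusted p = 0.000158, adjusted p = 0.383). Elovl5, which lengthens polyunsaturated fatty acids, was between 337 and 694 in the high and between 884 and 1540 in the low tumors (log2 difference −1.12 ± 0.24). Livers were at 180 to 352, so Elovl5 was higher in the low tumors than in any liver.

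Of the named genes, Plekhd1 had the largest negative difference, −2.52 ± 0.41 on the log2 scale (SE, unadjusted p = 4.55e-05, adjusted p = 0.282). It was between 0 and 2.18 in the high and between 5.35 and 15 in the low tumors, and listed at 0 in all 6 livers. Plekhd1 thus passed the filter only with the low tumors. Spon2, a secreted matrix protein of the spondin family, was at 9.39 to 32.9 in the high tumors, 34.9 to 65.1 in the low tumors and 3.27 to 11.4 in livers. Both genes were thus higher in every low tumor than in any high tumor or liver. Clpx, a subunit of the mitochondrial Clp protease, was between 30.6 and 88.2 and between 105 and 168 (log2 difference −1.26). Tjp3, a tight junction protein, was between 16.9 and 20.8 and between 28.5 and 42.8. Arl4a, Impa2 and Zfp933 had log2 differences of −0.81, −1.01 and −1.35 with no overlap.

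**Figure D2:**
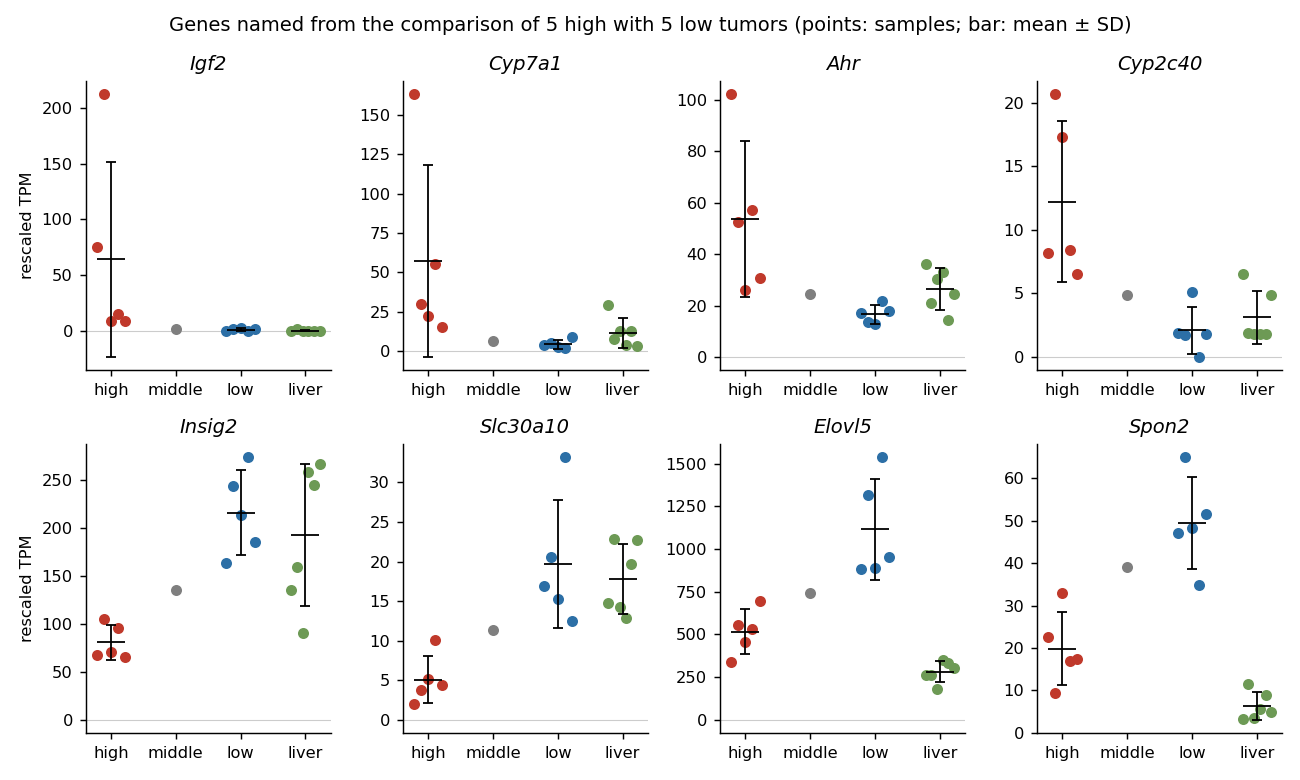
Rescaled TPM of 8 of the 20 genes named by the smallest unadjusted p, in 5 high tumors, the middle tumor, 5 low tumors and 6 livers. Points are samples and bars give the mean ± SD. High and low tumors do not overlap in any of the 8 genes, and Igf2 and Cyp7a1 each have 1 high tumor far above the others.

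The 20 named genes kept their direction in every alternative that tested them, 25 for Cbr3 and 26 for the others, those with each tumor left out included. For 5 of them (Cnn2, Srm, Ahr, Clpx and Spon2) the unadjusted p was under 0.05 in every alternative. All 20 were chosen by their small unadjusted p in these tumors, and the alternatives reuse most of the same tumors. A kept direction or a small p was therefore likely from the choice itself and is no independent test of these genes. Igf2, Cyp2c40, Cbr3 and Plekhd1 were at 0 in at least 1 tumor of their lower group. These genes therefore passed the filter only with the group where they were high.

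**Figure D3:**
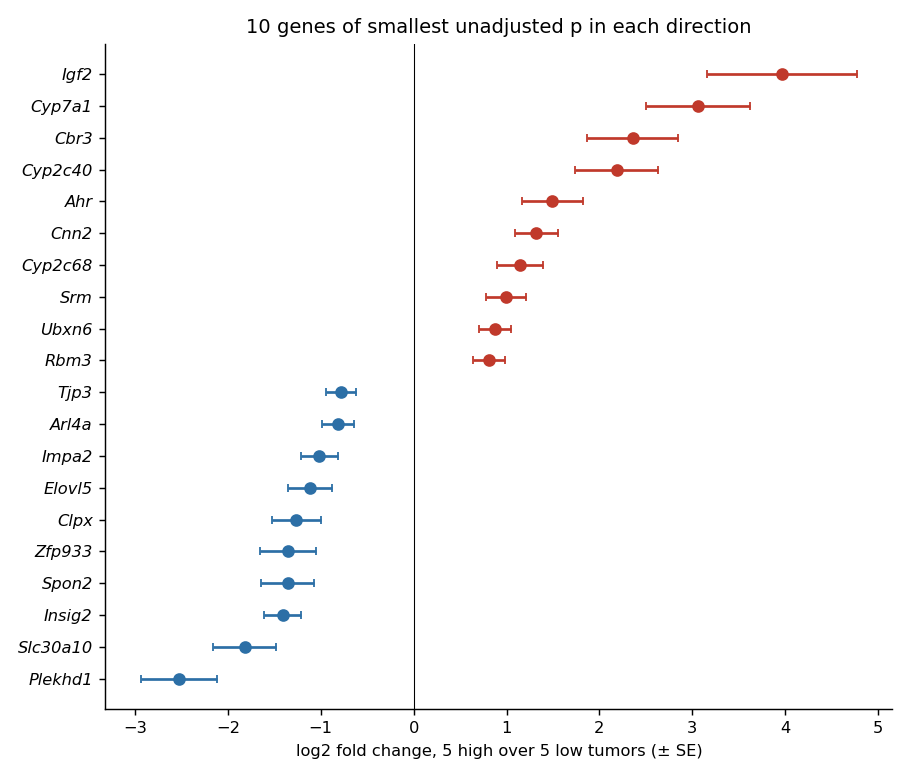
Log2 fold change (high over low tumors, ± SE) of the 10 genes with the smallest unadjusted p in each direction. Differences run from −2.52 for Plekhd1 to 3.96 for Igf2, and none passed after adjustment over 12385 genes.

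The zonation lists had the medians farthest from 0 with tumor 10 included, and medians nearer to 0 without it. Hepatocytes near the central vein are kept in their state by Wnt and beta-catenin signaling and express Glul (glutamine synthetase), Cyp2e1 and Axin2, while those near the portal vein express urea cycle and gluconeogenic enzymes. All 20 pericentral genes tested had a positive difference (median 1.21), beside 7116 of all 12385 genes. At an unadjusted p under 0.05, 2 of them were higher, beside 3.29% of all genes. Of 20 periportal genes, 19 had a negative difference (median −1.15), beside 5269 of all genes. At an unadjusted p under 0.05, 1 of them (Sox9) was lower, beside 1.62% of all genes. Without tumor 10, 6596 of all 12222 genes were positive. In that setting 15 of 19 pericentral genes were positive with a median of 0.29, and 14 of 20 periportal genes were negative with a median of −0.23. Leaving out any other tumor did not bring either median closer to 0 than that.

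Tumor 10 itself was extreme in both directions. Glul was at 12543 there, between 88.3 and 599 in the other high tumors, between 41.5 and 312 in the low tumors and between 391.8 and 756 in livers. Glul was picked after its values were seen. Lgr5, a Wnt target, was at 18.4 in tumor 10 and at most 1.71 elsewhere in the 10 tumors, Tbx3 at 65.3 against at most 6.73, and Notum at 143 against at most 23.6. Cps1, the first enzyme of the urea cycle and a member of the mature hepatocyte list, was at 6.12 in tumor 10 and between 647 and 1931 in the other 9. Of the periportal genes, Arg1 was at 18.4 against 540 to 1245, and Sds, Gls2 and Cyp2f2 were listed at 0 in tumor 10. Tumor 1, a low tumor, had the lowest Glul, Cyp1a2 and Slc1a2 of the 10.

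Cyp2a5 and Lect2 were the pericentral genes under an unadjusted p of 0.05. Cyp2a5, a coumarin hydroxylase, was at 2127, 1625, 963, 665 and 1355 in the high tumors 10, 6, 9, 8 and 7 and between 154 and 769 in the low tumors (log2 difference 1.82 ± 0.47, SE, unadjusted p = 0.00212, adjusted p = 0.537). Only tumor 8 fell into the range of the low tumors. Cyp2a5 has a close copy, Cyp2a4, so its own share of the reads is uncertain. Lect2, a hepatokine, was at 1380 in tumor 10, between 41.3 and 118 in the other high tumors and between 20.4 and 73.1 in the low tumors.

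**Figure D4:**
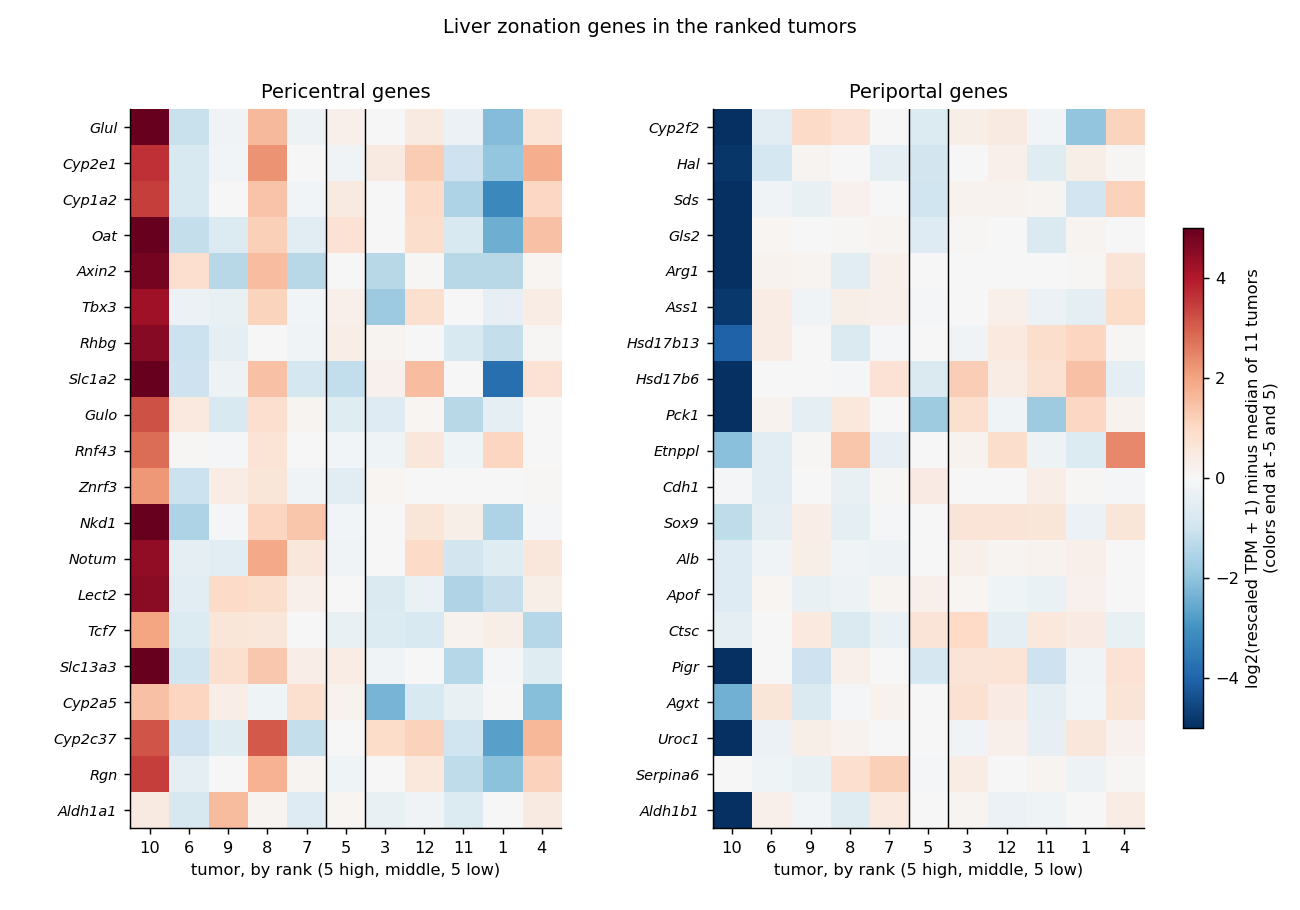
Log2(rescaled TPM + 1) of 20 pericentral and 20 periportal genes in 11 ranked tumors, minus the median of each gene over the 11, with the ends of the color scale capped. Columns are tumors by rank, with lines around the middle tumor, and tumor 10 in the first column stands out in red on the left and in blue on the right.

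Genes of mature hepatocytes showed few differences. Of 43 tested, 29 had a negative and 14 a positive difference (median −0.20), with 2 higher (Cyp7a1 and Adh1) and 1 lower (C8a) at an unadjusted p under 0.05, and without tumor 10 the median was 0.11. Adh1, alcohol dehydrogenase, averaged 3265 ± 622 in high and 2178 ± 468 in low tumors (SD, n = 5 each). Of 25 tested male-biased and female-biased liver genes, 2 were lower at an unadjusted p under 0.05, with a median of −0.06, and without tumor 10 the count was 0 and the median 0.17. Mup21, a major urinary protein of males, was between 4.08 and 21.8 in the high and between 6.65 and 82.0 in the low tumors (log2 difference −1.58 ± 0.61, SE, unadjusted p = 0.0232). C6, a complement component, averaged 50.7 against 75.9. The related Mup genes share much of their sequence, so their separate values are uncertain.

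Of 32 genes of lipid and sterol synthesis, 2 were higher (Fdft1 and Mvd) and 2 lower (Elovl5 and Fabp4) at an unadjusted p under 0.05, with a median of 0.02. Over all genes, 3.29% were higher and 1.62% lower. Fabp4, a fatty acid carrier of fat and endothelial cells, was between 13.1 and 48.8 in the high and between 25 and 109 in the low tumors (log2 difference −1.16 ± 0.45, SE).

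Most proliferation genes had higher mean log2 levels in the high tumors without passing the test. Of 41 cell cycle genes tested, 35 had a positive difference (median 0.44), beside 7116 of all 12385 genes. Only Birc5, survivin, was under an unadjusted p of 0.05, at 2.18 to 12.2 against 1.71 to 4.99. Without tumor 10, 31 of 40 cell cycle genes were positive, beside 6596 of all 12222 genes. The median of the list was then 0.26 and 0 of its genes were under an unadjusted p of 0.05. That count was also 0 without tumor 9, 11, 12 or 4, with age as a covariate and when ranked without Afp. It was 8 of 41 without tumor 7, 7 of 41 without tumor 1, 4 of 40 without tumor 3 and 3 of 40 without tumor 6 or 8. With the score as a continuous measure it was 8 of 41. Over all genes, 510 of 12326 were higher without tumor 7, 487 of 12108 without tumor 1 and 692 of 12507 with the continuous score. The same count was 406 of 12223 without tumor 3, 553 of 12111 without tumor 6 and 357 of 12064 without tumor 8. The mean log2 level of the cell cycle list was 3.71 in the middle tumor 5. It was 2.52 to 3.79 in the high and 2.29 to 3.06 in the low tumors. Mki67, the usual proliferation marker, was between 2.18 and 8.17 in the high and between 1.78 and 6.65 in the low tumors. Met, the receptor that the transgene encodes, was between 172 and 314 in the high tumors, between 237 and 344 in the low tumors and between 26.8 and 77.7 in livers. This value does not tell the transgene from the endogenous gene.

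Counts for signaling, sugar, stress and progenitor genes at an unadjusted p under 0.05 stand beside 3.29% of all genes higher and 1.62% lower. Of 33 growth factor genes tested, Erbb3, a receptor of the EGF receptor family, alone was under an unadjusted p of 0.05, at 47.0 to 60.6 in the high and 65.8 to 122 in the low tumors without overlap (log2 difference −0.67 ± 0.19, SE, unadjusted p = 0.00378). Of 26 genes of sugar uptake and glycolysis, 2 were higher (Tkt and Hk3), with a median of 0.23 that was 0.04 without tumor 10. Of 25 acute phase genes, 1 was lower (Fga), with a median of −0.02 that was 0.11 without tumor 10. Of 16 genes of RNA quality and stress, 2 were higher (Dnajb1 and Hspa5) with a median of 0.05 (−0.01 without tumor 10). Hspa5, a chaperone of the endoplasmic reticulum, ran from 1144 to 2514 in the high and from 661 to 2180 in the low tumors. Of 16 biliary and progenitor genes, 2 were higher (Anxa1 and Cd44) and 1 lower (Sox9), with a median of 0.35 that was 0.21 without tumor 10. Cd44, a hyaluronan receptor, was at 36.7 in tumor 10, between 4.37 and 7.51 in the other high tumors and between 1.66 and 3.76 in the low tumors. Sox9, a ductal and progenitor factor, averaged 13 ± 5.41 in high and 23.2 ± 5.53 in low tumors (SD, n = 5 each, log2 difference −0.84 ± 0.29, SE, unadjusted p = 0.0142).

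Markers of other cell types were compared as lists. In these bulk samples fewer cells of a type and less RNA per cell cannot be told apart. Of 10 markers of stellate cells and fibroblasts, all tested, 6 were higher at an unadjusted p under 0.05 (Col3a1, Reln, Col1a1, Col1a2, Acta2 and Lum), beside 3.29% of all genes, and none lower, with a median of 0.79. Their summed level was between 175 and 423 in the high and between 92.2 and 159 in the low tumors without overlap. Col3a1, a fibrillar collagen, was at 67.4, 63.9, 29.4, 33.6 and 28.4 in the high tumors 10, 6, 9, 8 and 7 and at 9.41, 10.3, 25.5, 21.6 and 5.35 in the low tumors (log2 difference 1.65 ± 0.40, SE, unadjusted p = 0.00134, adjusted p = 0.520). The quiescent stellate marker Lrat was between 0 and 13.5 in the high and between 1.66 and 5.35 in the low tumors. Without tumor 10, 4 of the 10 were higher at an unadjusted p under 0.05, beside 281 of all 12222 genes, and the median was 0.65. With H19 left out of the ranking, 0 were, and the median was 0.32, and with Gpc3 left out, 1 was, and the median was 0.37.

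Of 11 tested markers of macrophages and Kupffer cells, 10 had a positive difference (median 0.79), beside 7116 of all 12385 genes. At an unadjusted p under 0.05, 2 were higher (Lyz2 and C1qb), beside 3.29% of all genes. That count ran from 1 to 7 with 1 tumor left out. It was 1 of 11 without tumor 10, 11 or 1 and when ranked without Afp, and 1 of 12 when ranked without H19. It was 7 of 10 without tumor 3, 5 of 11 without tumor 7 and 8 of 12 when ranked without Gpc3. With the 4 highest against the 4 lowest tumors it was 8 of 10. Over all genes, 406 of 12223 were higher without tumor 3 and 510 of 12326 without tumor 7. The same count was 447 of 12464 when ranked without Gpc3 and 451 of 12141 with the 4 highest against the 4 lowest. Without tumor 10 the median of the macrophage markers was 0.50. The summed level of the macrophage markers was between 274 and 715 in the high and between 122 and 327 in the low tumors. Lyz2, lysozyme, was between 75.7 and 194 in the high and between 40.7 and 82.8 in the low tumors (log2 difference 1.09 ± 0.31, SE, unadjusted p = 0.00393). The Kupffer cell markers Clec4f, Vsig4 and Timd4 were listed at 0 in tumor 10, which had the highest C1qb at 163.

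Other cell types gave little. Hepatocyte markers summed to between 91873 and 163816 in the high and between 139358 and 166516 in the low tumors, with Ttr at 11697 or more in all 10. Of 11 endothelial markers, 1 was higher (Vwf) and 9 had a negative difference (median −0.16), with sums of 127 to 340 and 209 to 324. Without tumor 10, 0 were under an unadjusted p of 0.05, 6 were positive and 5 negative, and the median was 0.10. Cholangiocyte markers summed to between 190 and 797 and between 133 and 1848, mostly Spp1, while Cftr was listed at 0 in all 10 tumors. No T and NK cell marker passed the filter, and their sum was at most 30.6 in the high and 7.13 in the low tumors, with Klrb1c and Ncr1 at 0 in all 10. The sums of B and plasma cell markers were at most 10.2 and 8.31, those of neutrophil markers at most 8.17 and 5.64. Mast cell markers summed to 118 in tumor 10, with Mcpt4 at 42.9 and Tpsb2 at 38.8, and to at most 5.64 in every other tumor of the 10. Red blood cell genes summed to between 24.2 and 127 and between 35.7 and 63.6. The part of stromal and immune RNA in the differences of other genes was not tested.

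**Figure D5:**
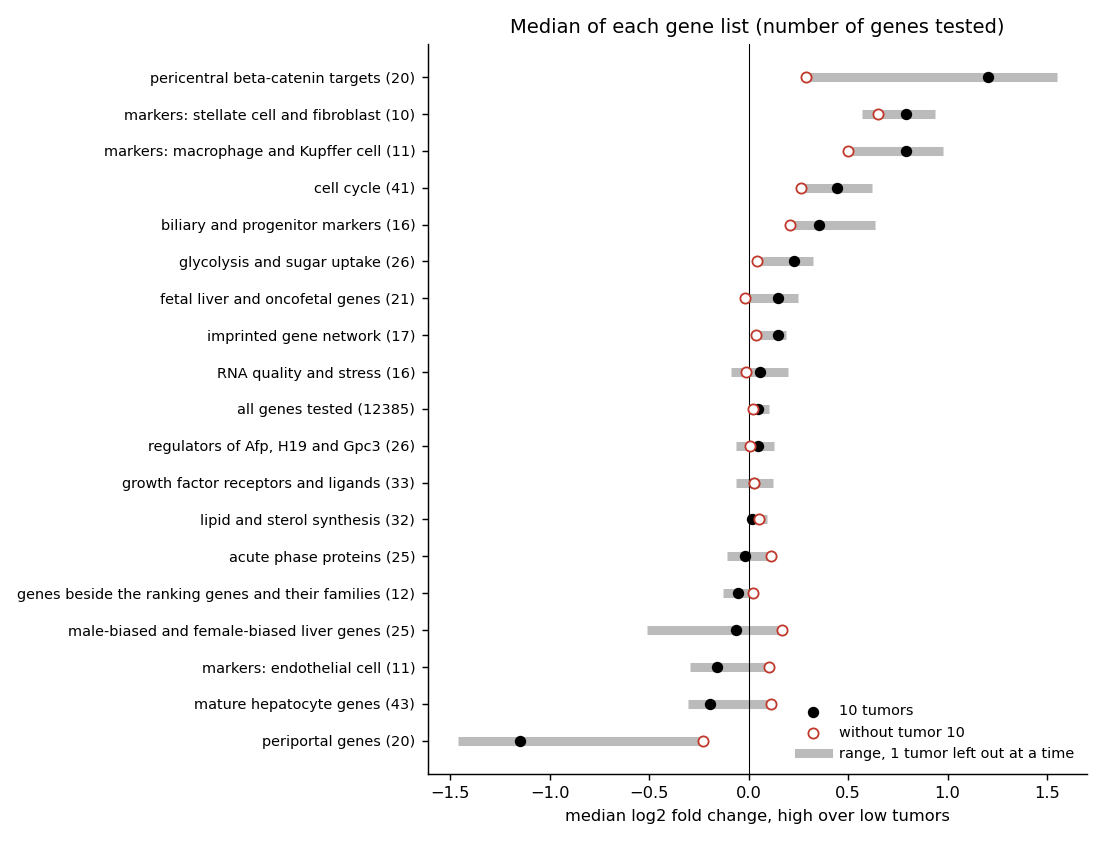
Median log2 fold change (high over low tumors) of each gene list with at least 10 genes tested, and of all genes tested. Black points use 10 tumors, open red points leave out tumor 10, and gray bars give the range with each of the 10 tumors left out in turn, which stays on 1 side of 0 for the pericentral, periportal, stellate cell, macrophage, cell cycle, biliary, glycolysis and imprinted lists and for all genes.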

How the data were processed

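The authors extracted RNA from 12 tumors and 6 livers, selected poly-A transcripts and sequenced them on a NovaSeq X with paired ends. They mapped the reads to GRCm38 (mm10), used Salmon for quantification and expressed genes as TPM. The submitters' processing notes also name edgeR. The deposited values form a score in whole numbers per gene, which the authors call raw counts. They were read as rounded TPM, because 882 of 900 values over 50 genes equaled the TPM of a supplementary table after rounding. Depth per sample cannot be recovered from them, and totals per sample ran from 835144 to 907513. The table holds 28442 genes. In 8 lines an extra separator was read accordingly. Samples were matched to columns through the study's sample list, which also gave the ages, by mouse number and tumor name. For tumors 10 and 3 the mouse number of the list differs from that of the labels, and the match rests on the tumor name with its tag, which for tumor 10 is shared with tumor 5, whose mouse number agrees in both.

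Siglece and Gm26917 were left out and each column was rescaled to 1000000. Genes with at least 1 rescaled TPM in at least 5 of the 10 tumors were kept, H19, Afp and Gpc3 were not tested, and limma 3.58.1 was run on log2(value + 1) (R 4.3.3, trend in the prior variance, two-sided, Benjamini-Hochberg). Fold changes are on the log2(value + 1) scale, which understates those of low genes. The fit was tested on simulated data. The labels give 1 mouse number to tumors 11 and 12 and a separate one to each other tumor, and p-values measure the spread between tumors. Single values were tested by exact permutation. Tables and figures used Python 3.11.15, numpy 2.4.6, pandas 2.3.3, scipy 1.17.1 and matplotlib 3.10.9. RefSeq (GRCm38.p6) gave positions by gene identifier and sequences by symbol.

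The members and the gene lists were chosen with earlier results of these data known. Named genes were all members of the first 4 lists (fetal, regulators, imprinted, neighbors) that a sentence turns on, up to 4 called members of any other list, and the 10 largest changes per direction past an adjusted p of 0.05 or, since fewer than 5 genes passed, the 10 with the smallest unadjusted p, leaving out Gm and Rik symbols and immune receptor segments. List members with an unadjusted p under 0.05, Glul and other genes named for their levels were chosen after their values were seen. Alternatives covered scaling, filter, pseudocount, tag, age, the ranking genes, group size, the shared mouse, weights and each tumor left out. Ranking tumor 2 with the others was added after seeing the data. Some list members are not reported here.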

Additional observations from a re-analysis of the deposited data

Results flagged for a closer look

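Of 106 groups of 5 tumors examined for a value far from the other 4 (Dixon's ratio of the gap to the range), 14 were past the 95% limit. Chance passes about 1 in 20 independent groups (5.3 of 106), a number that does not apply to the ranking genes or to genes named after their values were seen, so the ratios are descriptions. For H19 and Afp they use the values that chose the groups. Tumor 10 was such a value among the high tumors for Afp (335 against at most 118 in the others, ratio 0.800), Cyp7a1 (163 against at most 55.5, 0.728), Glul (12543 against at most 599, 0.959), Lect2 (1380 against at most 118, 0.943), Cd44 (36.7 against at most 7.51, 0.903) and C1qb (163 against at most 46.7, 0.942). Tumor 6 was one for H19 (3853 against at most 508, 0.899) and, on the low side, for Tjp3 (16.9 against at least 19.6, 0.712). Tumor 9 was one for Cbr3 (19 against at most 5.64, 0.795). Among the low tumors, tumor 1 stood apart in Cbr3 (1.66 against 0 in the others, ratio 1), Sox9 (13.3 against at least 25, 0.895) and Adh1 (2999 against at most 2110, 0.793), tumor 11 in Mest (0 against at least 1.66, 0.883) and tumor 4 in Acta2 (8.92 against at most 5.14, 0.733). Tumor 2, which was outside the comparison, held 552 of H19, 17.8 of Afp and 44.5 of Gpc3, above the highest livers at 1.64, 4.91 and 0. In tumor 2, 1 unit of the deposited table equals 8.90 rescaled TPM.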

How the results depend on the processing

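The groups are defined by the outcome of a ranking with near ties at its border, tumors 11 and 12 share a mouse, and TPM hold no depth, so 5 against 5 tumors limit every statement. No paired analysis was possible because both groups are tumors of 1 numbering and share no replicate number. After adjustment, 1 gene (Insig2) passed, also with a 2-fold difference, with a trimmed mean of M values (adjusted p = 0.0400, log2 difference −1.46) and with the tag as a covariate (adjusted p = 0.00663, log2 difference −1.41), and 0 passed in any other alternative, with each tumor left out included. Genes with an unadjusted p under 0.05 numbered 346 when ranked without H19, 380 without Afp and 945 with the score as a continuous measure over 11 tumors, beside 608. With the deposited values unscaled, 29 genes did not overlap, beside 124. The share of higher genes among those with an unadjusted p under 0.05 was 66.9%, and 54.1% with the trimmed mean, 49.7% without H19, 80.0% without Gpc3, 54.9% without tumor 8 and 84.6% with tumor 2 ranked. The difference in age was 1.4 weeks when ranked without Gpc3 and ran from 6.8 to 11.95 weeks with 1 tumor left out. The difference in genes above 0 was −187 without H19 and ran from −104.8 (without tumor 8) to 453.8 with 1 tumor left out (−38.7 without tumor 11). The share of Siglece and Gm26917 differed by −0.272 percentage points without Gpc3 and ran from −0.936 to 5.44 with 1 tumor left out. The log2 difference of Zhx2 was −0.031, −0.03 and −0.01 without tumors 8, 11 and 4 and ran from −0.031 to 0.23 with 1 tumor left out. That of Zbtb20 was −0.17 without H19, −0.0353 without Gpc3, −0.0293 with the continuous score and between −0.17 and −0.09 without tumors 6, 8, 3 and 4, with a range of −0.17 to 0.33 with 1 tumor left out. Of 1265 alternative values for 47 genes, those of the continuous score included, the other 1253 kept direction and call. Many of the 47 genes were chosen by their values in the same tumors, so this count is no independent test of them. The causes were not tested.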
